A study of Homo sapiens with 4 samples.

Results

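The genes described here are the 5 NF-kB subunits, NFKB1, NFKB2, REL, RELA and RELB, and 5 inhibitors of the pathway, NFKBIA, NFKBIB, NFKBIE, TNFAIP3 and TNIP1. They were taken by name and make up 10 of the 18567 genes with a level in the table. RNA was sequenced from Kasumi-1, an established acute myeloid leukemia cell line that carries the RUNX1::RUNX1T1 fusion. There were 2 NC samples, labelled as untreated and without a hairpin, and 2 sh-ANP32B samples in which a short hairpin RNA lowers ANP32B, a nuclear acidic phosphoprotein and histone chaperone. The study's methods tell of a control hairpin, of lentiviral infection and of puromycin selection, so whether the NC samples carried a hairpin was not settled, and effects of infection and selection cannot be told apart from those of the knockdown. The labels do not say which ANP32B hairpin the sh-ANP32B samples carried, or whether replicates came from separate infections, so p-values measure the spread between these samples only. ANP32B itself had 383.8 and 392 TPM in the NC samples, against 51.8 and 41.2 TPM after the knockdown.

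NF-kB is a family of transcription factors that act as dimers of the 5 subunits. In resting cells the dimers are held in the cytoplasm by inhibitor proteins, the IkBs, and a stimulus such as TNF or a Toll-like receptor ligand activates a kinase complex that marks the IkBs for degradation. NFKB1 and NFKB2 are made as long precursors that hold dimers back by their own ankyrin repeats until they are processed, and RELB pairs mainly with processed NFKB2 in the noncanonical branch of the pathway. Several subunits and inhibitors are themselves targets of NF-kB, which gives the pathway its feedback. In myeloid cells the pathway drives inflammatory and survival genes.

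The promoter sequences are shown because feedback by NF-kB on its own genes acts through kB sites. The kB consensus, the motif of 10 letters that NF-kB dimers bind, was searched on both strands in RefSeq windows (GRCh38.p14, the hg38 assembly) from 250 bases before to 50 bases after each annotated start. It was found in 7 of the 8 genes that had a window, against 1937 of 27305 genes in all (7.094%). By window, 8 of 14 held a match, against 5.909% of 35116 windows. Each 30-base stretch is given in the direction of the gene with the matching letters in capitals, and overlapping matches on the 2 strands run together.
REL, chr2:60881517-60881546 (+): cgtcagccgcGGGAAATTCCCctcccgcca
NFKB1, chr4:102501300-102501329 (+): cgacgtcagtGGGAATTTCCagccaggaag
NFKB2, chr10:102394461-102394490 (+): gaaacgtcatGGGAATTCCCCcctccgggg
NFKB2, chr10:102394490-102394519 (+): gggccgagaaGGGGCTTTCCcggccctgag
NFKB2, chr10:102395519-102395548 (+): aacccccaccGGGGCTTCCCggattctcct
NFKB2, chr10:102395674-102395703 (+): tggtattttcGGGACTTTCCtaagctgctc
NFKBIA, chr14:35404811-35404840 (-): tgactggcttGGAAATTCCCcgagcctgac
NFKBIB, chr19:38899931-38899960 (+): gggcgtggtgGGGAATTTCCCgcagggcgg
TNFAIP3, chr6:137867188-137867217 (+): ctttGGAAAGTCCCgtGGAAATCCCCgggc
TNIP1, chr5:151081057-151081086 (-): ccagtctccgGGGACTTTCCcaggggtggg

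NFKB2 held the most, with matches in 2 of its 3 windows. The matches of NFKB1, NFKBIA and TNFAIP3 lay upstream of the gene as GENCODE v44 annotates it. Those of REL and TNIP1, and all of NFKB2 but 1, fell in the untranslated part of some transcript, and the NFKBIB match and the remaining NFKB2 match fell in an intron. Neither window of RELA held a match, which says only that these letters were absent from those windows. RELB and NFKBIE had no entry. A match is a description of the sequence, and no binding was measured here.

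The levels were deposited as TPM, which divides the signal of a gene by its length and by the total of its sample, so that levels can be compared between genes. All 10 genes were measured well above 1 TPM in all 4 samples. In NC the order of the mean levels was NFKB2 (119 TPM), TNIP1 (116), NFKBIA (77.96), RELA (58.4), NFKBIE (52.6), TNFAIP3 (52.1), NFKB1 (38.03), RELB (35.2), NFKBIB (30.2) and REL (14.3). The 2 NC values of NFKB2 and TNIP1 overlapped, as did those of NFKBIE and TNFAIP3 and those of RELB and NFKBIB, so the order within these pairs was not beyond the spread.

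**Figure D1:**
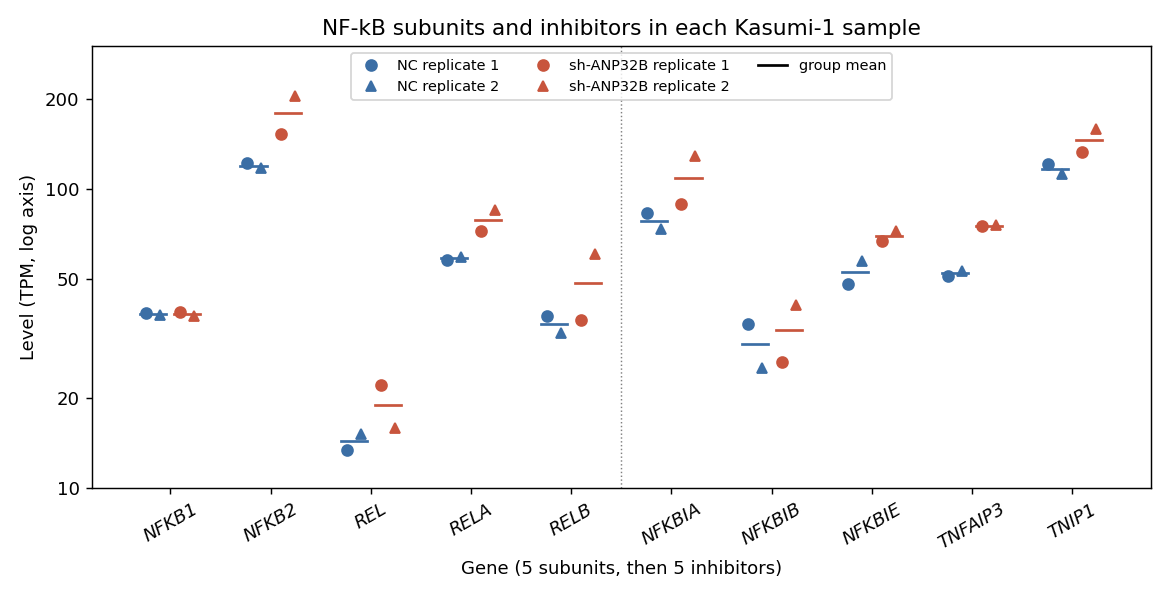
Level of each gene in each sample in TPM on a log axis, with circles for replicate 1, triangles for replicate 2 and lines for the group means (n = 2 each). In 7 of the 10 genes both sh-ANP32B samples lie above both NC samples, and in NFKB1, RELB and NFKBIB the groups overlap.

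The sh-ANP32B samples were compared with the NC samples by limma with an abundance trend on log2(TPM + 1), fitted over 16817 genes. None of the 10 genes had a Benjamini-Hochberg adjusted p under 0.05 over all genes, where 3.32% of all genes did, 2.14% of them higher and 1.18% lower. An unadjusted p under 0.05 was found for 4 of the 10, NFKB2, RELA, NFKBIE and TNFAIP3, against 23.8% of all genes. The thresholds of the study, p below 0.05 and a log2 fold change beyond 0.5 either way, do not say whether p was adjusted. Taken with the unadjusted p they were passed by NFKB2 and TNFAIP3, both higher, where 12.1% of all genes passed in that direction, 6.55% in the other and 18.6% in either. The log2 fold changes of the 10 genes ran from 0.00 to 0.56 with a median of 0.40, beside a median of 0.08 over all genes, and 57.9% of all genes had a positive value. Both sh-ANP32B samples lay above both NC samples in 7 of the 10, against 33.2% of all genes, and both lay below in 0 of the 10, against 21.4%. In either direction 54.6% of all genes had groups that did not overlap. With 2 samples a group, no two-sided exact permutation p can be lower than 0.333, and such tests were left out.

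Among the subunits, NFKB2 (ENSG00000077150, chr10:102394110-102402524, plus strand), the precursor of the noncanonical branch, had 121.5 and 116.9 TPM in the NC samples, against 152.3 and 204.4 TPM after the knockdown. Both sh-ANP32B samples were above both NC samples, and sh-ANP32B replicate 2 was the highest of the 4. Mean levels were 119 ± 3.24 TPM in NC and 178 ± 36.8 TPM after the knockdown (SD, n = 2 each). The log2 fold change was 0.56 (standard error 0.167, 95% interval 0.16 to 0.96, adjusted p 0.111 by limma). The interval excluded 0, but the difference did not pass the test over all genes.

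RELA (ENSG00000173039, chr11:65653599-65663090, minus strand), the main activating subunit of the canonical branch, had 57.7 and 59.2 TPM in the NC samples, against 71.97 and 84.6 TPM after the knockdown. The groups did not overlap. On the log2 scale the difference was 0.41 (standard error 0.144, 95% interval 0.07 to 0.76, adjusted p 0.154 by limma).

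RELB (ENSG00000104856, chr19:45001461-45038192, plus strand), the partner of processed NFKB2, had 37.4 and 32.9 TPM in the NC samples, against 36.5 and 60.4 TPM after the knockdown. Its groups overlapped, since sh-ANP32B replicate 1 lay between the NC samples, and the higher mean came from replicate 2 alone. The fitted log2 difference was 0.41 (standard error 0.245, 95% interval -0.17 to 1.00, adjusted p 0.362 by limma).

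REL (ENSG00000162924, chr2:60881491-60931612, plus strand), a subunit prominent in lymphoid cells, was the lowest of the 10 genes, with 13.4 and 15.2 TPM in the NC samples, against 21.98 and 15.9 TPM after the knockdown. Here sh-ANP32B replicate 1 was the high sample and replicate 2 was barely above NC. Its log2 fold change came to 0.37 (standard error 0.212, 95% interval -0.14 to 0.87, adjusted p 0.345 by limma).

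NFKB1 (ENSG00000109320, chr4:102501330-102617302, plus strand), the precursor of the canonical branch, stood at 38.4 and 37.7 TPM in the NC samples, against 38.6 and 37.6 TPM after the knockdown. The samples of the groups interleaved. The groups differed on the log2 scale by 0.00 (standard error 0.142, adjusted p 0.996 by limma), and its 95% interval of -0.34 to 0.34 bounds the difference that these samples could have hidden.

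The 5 subunits summed to 268 and 262 TPM in NC and to 321 and 403 TPM in sh-ANP32B. NFKB2 made up 45.3% and 44.6% of this sum in NC and 47.4% and 50.7% in sh-ANP32B. NFKB1 made up 14.3% and 14.4% in NC and 12.02% and 9.33% in sh-ANP32B. The ratio of NFKB2 to NFKB1, which no rescaling of a sample can move, was 3.17 and 3.10 in NC and 3.94 and 5.44 in sh-ANP32B. The 2 precursors differ in the GC content of their longest transcript, 62.4% for NFKB2 and 35.97% for NFKB1, and the sh-ANP32B replicates differed by GC content over all genes. The part of this in the ratio was not tested.

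**Figure D2:**
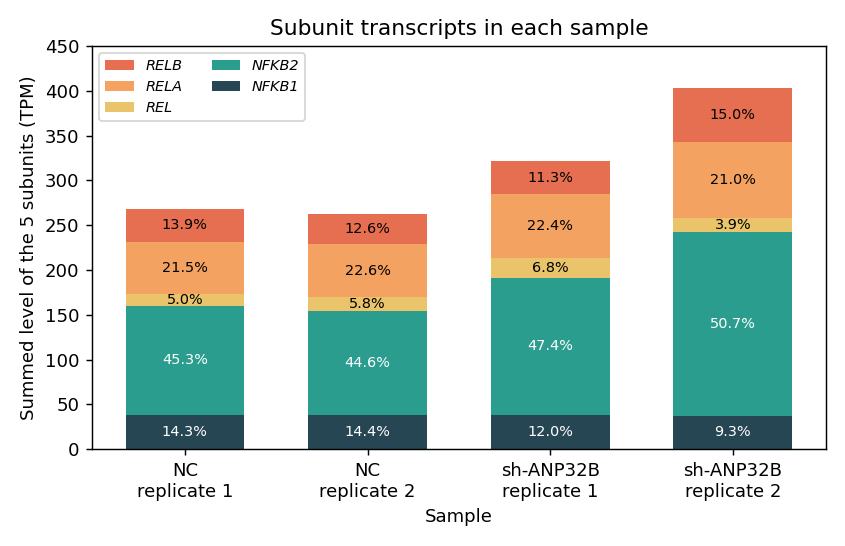
Summed TPM of the 5 subunits in each sample, with each segment one subunit and its share of the sum in percent. NFKB2 is the largest segment in every sample, and the NFKB1 share is lowest, at 9.33%, in sh-ANP32B replicate 2.

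Among the inhibitors, TNFAIP3 (ENSG00000118503, chr6:137867214-137883314, plus strand), a ubiquitin-editing enzyme that shuts off signalling to the kinase complex, differed most evenly between the groups. It had 51.1 and 53.2 TPM in the NC samples, against 74.8 and 75.8 TPM after the knockdown. Both groups were tight, and the gap between them was larger than the spread within either. Mean levels were 52.1 ± 1.46 TPM in NC and 75.3 ± 0.727 TPM after the knockdown (SD, n = 2 each), a fold of 1.44. The log2 fold change was 0.52 (standard error 0.132, 95% interval 0.21 to 0.84), with an adjusted p of 0.0798 by limma, the lowest of the 10 genes. Its transcript has a GC content of 47.8%, close to the median of 48.08% over the genes tested. It overlaps the antisense gene WAKMAR2, which was at most 5.84 TPM in any sample, and whether counting used strand is not stated in the sources used here.

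NFKBIE (ENSG00000146232, chr6:44258166-44265788, minus strand), the IkB epsilon protein, had 47.9 and 57.2 TPM in the NC samples, against 66.6 and 72.1 TPM after the knockdown. The groups did not overlap. In log2 units the difference was 0.40 (standard error 0.152, 95% interval 0.03 to 0.76, adjusted p 0.181 by limma).

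NFKBIA (ENSG00000100906, chr14:35401079-35404749, minus strand), the IkB alpha protein and a classical feedback target, had 82.7 and 73.3 TPM in the NC samples, against 88.5 and 128.6 TPM after the knockdown. The groups did not overlap, but sh-ANP32B replicate 1 was close to the higher NC sample. The fitted log2 difference was 0.45 (standard error 0.198, 95% interval -0.02 to 0.92, adjusted p 0.229 by limma).

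TNIP1 (ENSG00000145901, chr5:151029945-151093577, minus strand), which brings TNFAIP3 to its substrates, had 120.7 and 112.1 TPM in the NC samples, against 132.4 and 158.3 TPM after the knockdown. The groups did not overlap, by a smaller margin than in TNFAIP3. Its log2 fold change came to 0.31 (standard error 0.143, 95% interval -0.03 to 0.65, adjusted p 0.245 by limma).

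NFKBIB (ENSG00000104825, chr19:38899700-38908893, plus strand), the IkB beta protein, had 35.2 and 25.2 TPM in the NC samples, against 26.4 and 40.8 TPM after the knockdown. The groups overlapped, and both held a wide spread. On the log2 scale the difference was 0.14 (standard error 0.256, 95% interval -0.48 to 0.75, adjusted p 0.800 by limma). NFKBIB overlaps SIRT2, a gene on the opposite strand with 53.9 to 79.1 TPM, so without strand its value is uncertain. The 5 inhibitors summed to 1.26 and 1.23 times the subunits in NC and to 1.21 and 1.18 times in sh-ANP32B.

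**Figure D3:**
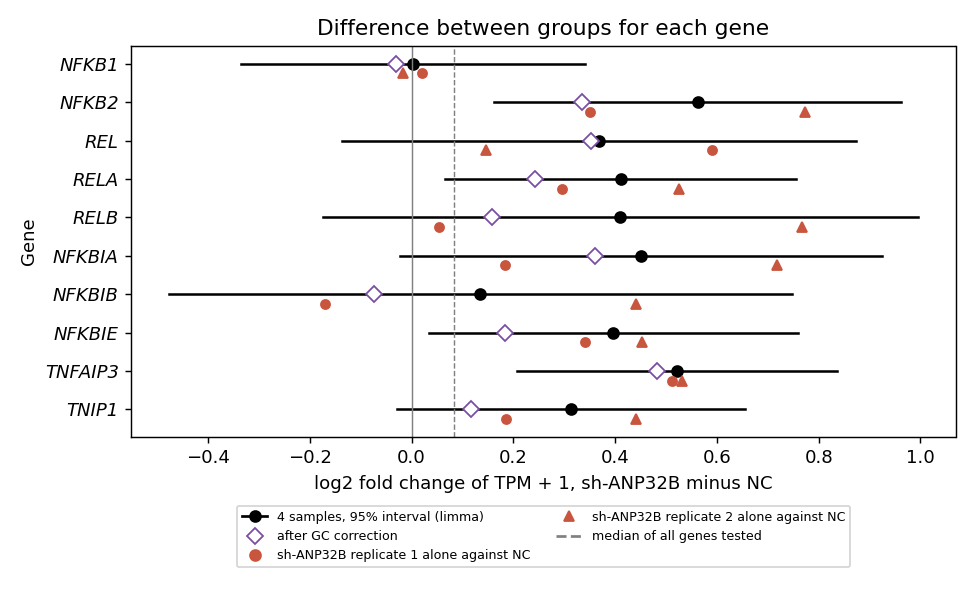
Log2 fold change of TPM + 1 for each gene with its 95% interval from limma (black), after GC correction (open diamonds), and with each sh-ANP32B replicate alone against the NC samples (red), beside the median of all genes (dashed line). The intervals of NFKB2, RELA, NFKBIE and TNFAIP3 exclude 0, and the 2 red points of TNFAIP3 nearly coincide, at 0.51 and 0.53.

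The sh-ANP32B replicates lay close together in TNFAIP3, NFKB1 and NFKBIE, with ratios of replicate 2 to replicate 1 of 1.01, 0.973 and 1.08, and farther apart in other genes. In 8 of the 10, replicate 2 was above replicate 1, by a ratio of 1.66 in RELB, 1.55 in NFKBIB, 1.45 in NFKBIA and 1.34 in NFKB2. REL, at a ratio of 0.722, and NFKB1 were the exceptions. These 2 genes have the transcripts lowest in GC content, 38.7% and 35.97%, and RELB has the highest, 64.9%. Over the 10 genes the gap between the replicates followed GC content with a Spearman rho of 0.745, given as a description of genes that share the same 2 libraries. Over 15427 tested genes with a GC value rho was 0.577, with a median log2 gap of -0.36 over the 1543 genes lowest in GC content and 0.44 over as many of the highest. A GC content above the median of the genes tested was found for 7 of the 10.

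**Figure D4:**
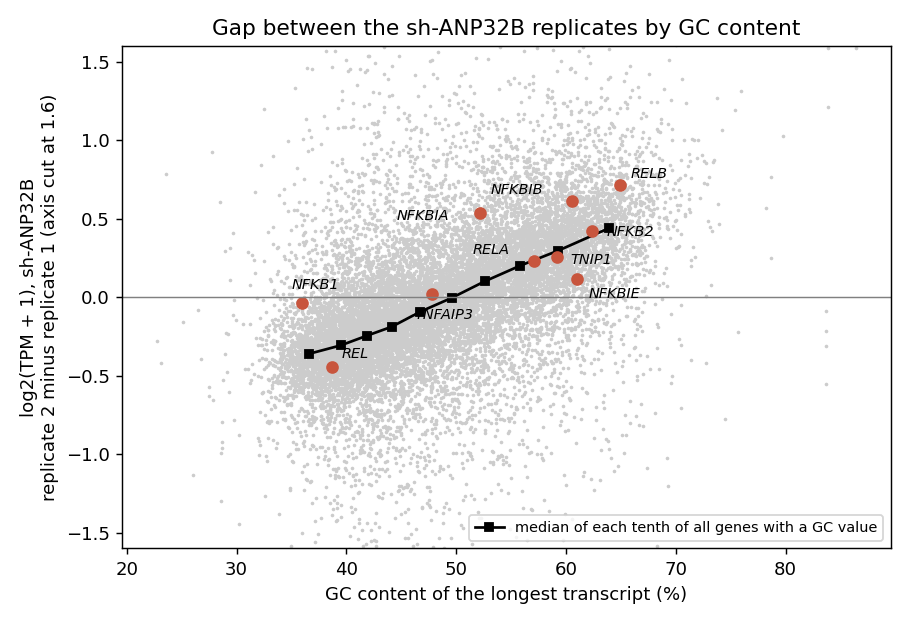
Log2 difference between sh-ANP32B replicate 2 and replicate 1 against the GC content of the longest transcript, for all tested genes (grey, axis limited to 1.6 either way), the medians of 10 GC bins (black) and the 10 NF-kB genes (red). REL lies at -0.45 and RELB at 0.71, on either side of the line at 0.

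A loess correction for GC content in each sample lowered the median log2 fold change of the 10 genes to 0.21. Over all genes the median was 0.00, a value that the correction itself brings about by centring each sample. The correction gave NFKB2 a log2 fold change of 0.34 (adjusted p 0.0298 by limma) and TNFAIP3 one of 0.48 (adjusted p 0.0161 by limma). Thus 2 of the 10 passed, where 7.91% of all genes passed as higher. With the replicate block added to this correction NFKB2 lost the call (adjusted p 0.076 by limma) and TNFAIP3 held it (adjusted p 0.0364). After the correction RELA stood at 0.24 (adjusted p 0.0873 by limma), NFKBIE at 0.18 (adjusted p 0.393), RELB at 0.16, TNIP1 at 0.12 and NFKBIB at -0.07. Without sh-ANP32B replicate 1, limma called 7 of the 10 genes higher, NFKB2, RELA, RELB, NFKBIA, NFKBIE, TNFAIP3 and TNIP1, where 14.6% of all genes were. Without sh-ANP32B replicate 2 it called 3, NFKB2, REL and TNFAIP3, where 12.1% of all genes were, and without either NC replicate it called 0. These fits take the lone sample to vary like the other group, and NFKB2 and TNFAIP3 were called whichever sh-ANP32B replicate was left out.

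The rest of the pathway was described by lists written by hand. Of 18 receptors and ligands 10 were tested, and 2 of them rose with an adjusted p under 0.05 by limma, where 2.14% of all genes did. TNFRSF1B, a TNF receptor of myeloid and lymphoid cells, had 107.8 and 103.7 TPM in the NC samples, against 169.9 and 199.2 TPM after the knockdown. Its log2 fold change was 0.79 (standard error 0.137, adjusted p 0.0435 by limma), and the call was lost after median-of-ratios scaling and without either NC replicate. IL1B, the inflammatory cytokine interleukin-1 beta, was low, with 1.59 and 0.855 TPM in the NC samples, against 5.05 and 6.62 TPM after the knockdown. Its log2 fold change was 1.63 (standard error 0.304, adjusted p 0.0455 by limma). The call was lost after median-of-ratios scaling, with a pseudocount of 0.1 and without NC replicate 2. With 1 TPM required in every sample IL1B was not tested, since NC replicate 2 was below that level. The list had a median of 0.51 over its tested genes, 8 positive and 2 negative. TNF, LTA, LTB and CD40 were among the 8 genes not analysed here.

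The activation machinery, the kinases, adaptors and ubiquitin enzymes that carry the signal to the IkBs, held 29 tested genes. Of these 0 had an adjusted p under 0.05 by limma, where 3.32% of all genes did. An unadjusted p under 0.05 was found for 3 of the 29, against 23.8% of all genes. The median log2 fold change was 0.09, beside 0.08 over all genes. TRAF3, an adaptor that restrains the noncanonical branch, had the highest value, 0.56 (adjusted p 0.136 by limma), and TRAF5, an adaptor of TNF family receptors, the lowest, -0.62 (adjusted p 0.135 by limma). TRAF3 stood at 28.6 and 26.8 TPM in NC and, after the knockdown, at 48.05 TPM (replicate 1) and 35.6 TPM (replicate 2). TRAF5 stood at 12.4 and 10.7 TPM in NC and, after the knockdown, at 7.67 TPM (replicate 1) and 6.60 TPM (replicate 2). Without sh-ANP32B replicate 1 the list had 8 called genes (27.6%), where 24.5% of all genes were called, and without sh-ANP32B replicate 2 it had 4 (13.8%), where 20.7% of all genes were.

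Of 19 further regulators tested, limma called 1 higher and 0 lower, where 2.14% of all genes were called higher and 1.18% lower. RNF11, a partner of TNFAIP3 in a ubiquitin-editing complex, had 26.9 and 28.7 TPM in the NC samples, against 63.2 and 58.4 TPM after the knockdown. The groups were far apart, with a log2 fold change of 1.10 (standard error 0.145, adjusted p 0.0304 by limma), and the call was lost without NC replicate 1. The list had a median of 0.21, with 16 positive and 3 negative values. Its count was 6 (31.6%) when either sh-ANP32B replicate was left out, where 24.5% of all genes were called without replicate 1 and 20.7% without replicate 2.

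Of 45 target genes 32 were tested, and limma called 3 higher and 1 lower. Over all genes 2.14% were called higher and 1.18% lower. CXCL8, a chemokine for neutrophils, had 26.2 and 32.6 TPM in the NC samples, against 68.4 and 54.2 TPM after the knockdown, a log2 difference of 1.04 (standard error 0.185, adjusted p 0.0440 by limma). KLF6, a zinc finger transcription factor, had 35.4 and 41.4 TPM in the NC samples, against 68.4 and 71.1 TPM after the knockdown, a log2 difference of 0.85 (standard error 0.148, adjusted p 0.0440 by limma). FTH1, the ferritin heavy chain that stores iron, had 1597 and 1594 TPM in the NC samples, against 3117 and 3031 TPM after the knockdown, a log2 difference of 0.95 (standard error 0.121, adjusted p 0.0304 by limma). Reads of FTH1 may be shared with its many processed copies, so its value is uncertain.

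The target that fell was CXCL10, a chemokine also driven by interferon, with 27.7 and 22.7 TPM in the NC samples, against 10.1 and 6.73 TPM after the knockdown. Its log2 fold change was -1.50 (standard error 0.235, adjusted p 0.0391 by limma). The list had a median of 0.35, with 25 positive and 7 negative values. The calls of KLF6 and FTH1 were lost without either NC replicate and that of CXCL8 without NC replicate 1. The list had 14 called genes without sh-ANP32B replicate 1 and 11 without sh-ANP32B replicate 2, against 1 without NC replicate 1 and 2 without NC replicate 2. The share called over all genes moved too, to 24.5% and 20.7% without sh-ANP32B replicates 1 and 2 and to 2.02% and 1.73% without NC replicates 1 and 2. Without the abundance trend limma called none of the genes named from these lists, and none of all genes. IL6, SOD2, CXCL1 and PTGS2 were among 12 targets not analysed here, and 1 more target had a level too low to be tested.

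**Figure D5:**
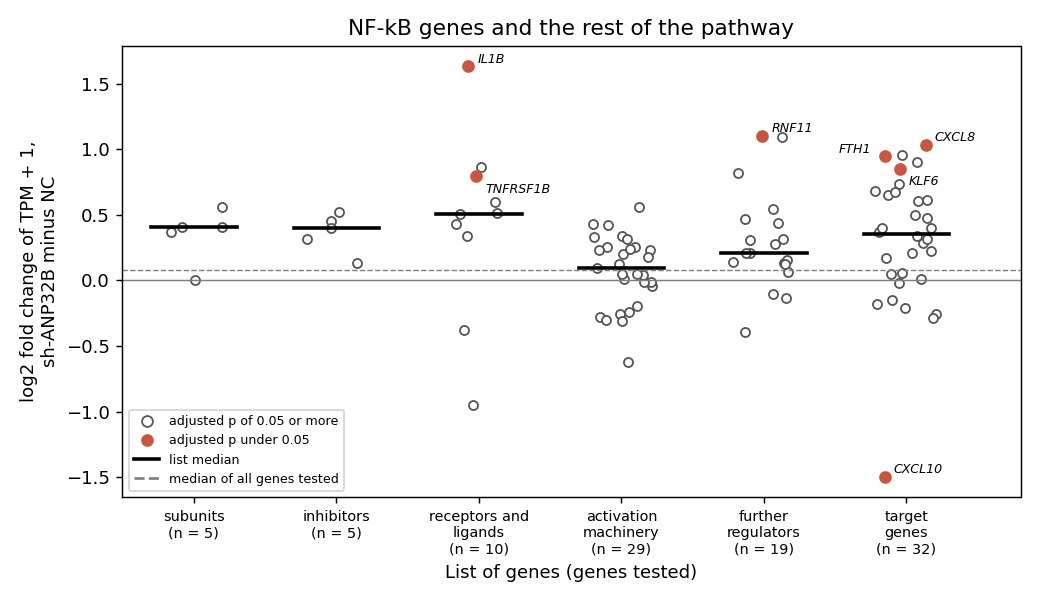
Log2 fold change of TPM + 1 for each tested gene of the 5 subunits, the 5 inhibitors and 4 other lists, with filled points for a limma adjusted p under 0.05 and black bars for list medians. The subunits and inhibitors hold no filled point, CXCL10 is the filled point below 0, and the activation machinery is centred at 0.09.

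The deposited values summed to between 997812 and 998314 per sample, which the unit fixes, and the sequencing depth is unknown. The share of mitochondrial transcripts was 12.9% and 13.1% in NC, 11.4% in sh-ANP32B replicate 1 and 8.43% in replicate 2. Over all genes 64.4% of the calls were higher, 360 against 199 lower, and after median-of-ratios scaling 236 were higher and 284 lower. That scaling gave the 10 genes a median log2 fold change of 0.32 and turned NFKB1 to -0.08.

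Of the Kasumi-1 markers, RUNX1T1 had 17.6 and 15.6 TPM in the NC samples, against 31.2 and 26.8 TPM after the knockdown. Its log2 fold change was 0.77 (adjusted p 0.0632 by limma). CD33 was at 58.5 to 70.1 TPM, KIT was low at 1.55 to 3.41 TPM, and CD34 and MPO were not analysed here. Both sh-ANP32B samples lay above both NC samples in 7 of the 8 tested, against 33.2% of all genes. Both lay below in 1 of the 8, CD38, against 21.4%. An adjusted p under 0.05 by limma was found for 0 of the 8, where 3.32% of all genes had one. Genes of monocytes also moved with the groups. All 7 tested had a positive log2 fold change, where 57.9% of all genes did. In 6 of the 7 both sh-ANP32B samples lay above both NC samples, against 33.2% of all genes, and in CSF1R the groups overlapped. The summed level of these genes was 765 and 818 TPM in the NC samples, against 1530 and 1571 TPM after the knockdown. Most of this sum was LYZ alone, with 669.4 and 696.8 TPM in the NC samples, against 1360 and 1316 TPM after the knockdown. LYZ rose with a log2 fold change of 0.97 (adjusted p 0.0281 by limma), and CD14 was not analysed here. It was the only 1 of the 7 called, where 2.14% of all genes were called higher. Of the T, B, erythroid and epithelial markers 4 of 16 had a level, summing to 12.2 to 17.2 TPM. CD2 rose from 1.65 and 1.57 TPM to 9.48 and 9.25 TPM (adjusted p 0.0261 by limma), and CD79A was listed at 0 in sh-ANP32B replicate 1. The part of these genes in the NF-kB values was not tested.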

How the data were processed

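RNA was sequenced in 2 NC and 2 sh-ANP32B samples of Kasumi-1 cells, grouped by their titles. Per the submitters' processing notes, reads were aligned to hg38 with HISAT2 2.0.5. The deposited values are TPM made by the authors, a unit identified from decimals that sum to nearly the same total in each sample, and the program, annotation and filters behind them are not given in the sources used here. TPM keeps no depth, so no counting interval was computed. Of 18567 gene IDs, 16986 matched GENCODE v44, which gave symbols, positions and GC content.

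Genes reaching 1 TPM in 2 or more samples entered the test, and log2(TPM + 1) was compared with limma 3.58.1 in R 4.3.3, two-sided, adjusted over 16817 genes. Fold changes on this scale understate the change of low genes. DESeq2, used by the study, needs counts and was not run. The 95% intervals use the limma standard error and 6.67 degrees of freedom. The fit was tested on 10 simulated sets with 200 changed genes each. It recovered 29.1% of genes changed by log2 1 and 94.4% of those changed by log2 2, and 4.01% of its calls were false. Changes were placed only in genes of higher level, and errors were drawn separately for each gene. A gap that many genes share, such as that by GC content between the sh-ANP32B replicates, was not simulated, so these shares may not hold for the real samples. Smaller changes, such as those of the 10 NF-kB genes, were not simulated. The members and lists were chosen with earlier results of these data known. Every member is named. From each other list, the genes with an adjusted p under 0.05 are named, or the highest and lowest where none passed.

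Alternatives were a pseudocount of 0.1, other filters, median-of-ratios scaling, removal of mitochondrial genes, GC correction, a replicate block, limma without the trend, and leaving out each replicate. Promoter windows are from RefSeq (GRCh38.p14). Scripts used Python 3.11.15, pandas 2.3.3, scipy 1.17.1 and matplotlib 3.10.9.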

Additional observations from a re-analysis of the deposited data

How the results depend on the processing

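With 2 samples in each group, a filter, a replicate block or the loss of the abundance trend cannot move a log2 fold change. Those of NFKB2, REL, RELA, RELB, NFKBIA, NFKBIE, TNFAIP3 and TNIP1 stayed positive in all 14 alternatives, which include these. That of NFKB1 (0.00 in the report) became -0.0844 with median-of-ratios scaling, -0.0469 without mitochondrial genes and -0.0314 after GC correction with or without the replicate block, and that of NFKBIB was -0.0731 in both GC-corrected fits. With one replicate left out NFKB1 ran from -0.0169 to 0.0214 and NFKBIB from -0.17 to 0.44. The number of the 10 genes called, 0 in the report, became 2 with GC correction, 1 (TNFAIP3, with NFKB2 lost) with GC correction plus the replicate block, and 0 to 7 with one replicate left out, 7 without sh-ANP32B replicate 1 and 3 without sh-ANP32B replicate 2. By the study's criterion, read with the unadjusted p, it was 2 in the report, 0 with median-of-ratios scaling and in both GC-corrected fits, and 1 without mitochondrial genes. Over all genes 2029 of 16817 met this criterion as higher in the report, and 1522 of 16817 with median-of-ratios scaling. As many as 1394 of 15427 did with GC correction, 1420 of 15427 with the replicate block added to it, and 1736 of 16780 without mitochondrial genes. The median of the 10 genes, 0.40, was 0.21 in both GC-corrected fits and 0.24 to 0.49 with one replicate left out.

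The counts called among receptors and ligands, activation machinery, further regulators and target genes were 2, 0, 1 and 4 as reported. They were 4, 1, 3 and 12 with GC correction, 4, 0, 3 and 9 under the replicate block, 4, 0, 3 and 10 with the replicate block and GC correction, 1, 0, 3 and 7 with 1 TPM required in every sample, 0, 0, 1 and 4 after median-of-ratios scaling, 1, 0, 1 and 4 with a pseudocount of 0.1, and 0, 0, 0 and 0 without the abundance trend. Over all genes the count was 559 as reported, 2558 with GC correction, 1473 under the replicate block and 1834 with both. It was 812 of 14476 with 1 TPM required in every sample. After median-of-ratios scaling it was 520 of 16817, and with a pseudocount of 0.1 it was 475 of 16817. Without the trend it was 0, where 2152 higher and 1185 lower genes still met the study's criterion. With one replicate left out the list counts ran from 0 to 7, 0 to 8, 0 to 6 and 1 to 14. The cause of these shifts was not tested. The block changed no call of the 10 genes without GC correction. Nothing in the labels says that the numbers pair the samples, and same-numbered deviations from the group means had a Pearson r of -0.0925 over 16817 genes. A crossed pairing was added after the data were seen because Spearman's rho of the deviations was -0.168. It gave 2 of the 10 genes and 5, 0, 3 and 10 in the lists, where 1995 of 16817 genes (11.9%) were called.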
